A study of Mus musculus with 10 samples.

Results

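Ifi44 (interferon-induced protein 44) and Ifi44l (interferon-induced protein 44 like) are adjoining genes on mouse chromosome 3, and they were the 2 rows with these gene names among the 54532 genes of the deposited table. RNA was sequenced from spleens of 5 DUSP6 KO and 5 wild-type (WT) mice, with 1 library per spleen, on day 9 of arthritis induced with KRN serum (KSIA), and the study asked which genes depend on DUSP6 in this model. All 10 mice, controls included, had received 100 µL of pooled arthritogenic serum intraperitoneally on days 0 and 2, so there was no group without arthritis serum. The mutant mice carried the Dusp6tm1Jmol allele, which the sample labels call a knockdown and the paper a knockout (KO), and the WT mice were C57BL/6J. Mice of the study were 8 to 12 weeks old, male and female mice were used in the model, and the sex of each spleen is not in the labels. Both lines were purchased, no source says that the groups were littermates, and the background of the KO line is not given in the sources used here, so other differences between the lines cannot be told apart from the deletion. The pair was chosen by its FPKM values in this comparison, so its differences are described and not tested.

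Type I interferons are secreted when cells sense nucleic acids of viruses or of damaged cells. They bind the receptor subunits Ifnar1 and Ifnar2, the kinases Jak1 and Tyk2 are activated, and transcription factors that include Stat2 and Irf9 switch on a broad set of antiviral genes. Ifi44 and Ifi44l belong to this set and encode related cytoplasmic proteins with a TLDc domain and a GTPase-like region. DUSP6 is a phosphatase that inactivates ERK1 and ERK2.

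Ifi44 (ENSMUSG00000028037) lies at chr3:151730922-151749960 on the minus strand of GRCm38. Ifi44l (ENSMUSG00000039146) lies at chr3:151758737-151762892 on the same strand, with 8776 bases and 0 annotated genes between them. In release 21 of the mouse GENCODE annotation, Ifi44 has a protein-coding transcript with 8 exons, 2910 bases and a coding part of 1266 bases, and also a transcript that retains an intron. Ifi44l has a single transcript with 3 exons, 1376 bases and a coding part of 469 bases. GENCODE marks the RNA start and the coding start of this transcript as not found and tags Ifi44l for an error of the reference genome, so its model is incomplete. No annotated gene overlapped either of them, so reads of an antisense or overlapping neighbour do not enter their values. The coding transcripts of the pair aligned with each other over 103 bases at 76.7% identity, and 0 transcripts of other genes aligned with either over 100 bases or more at 95% identity or more.

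The promoter sequences are shown because both genes were higher in the same spleens. They are the bases from 175 to 26 before the RefSeq start on GRCm38.p6, read 5′ to 3′ on the minus strand, at chr3:151749936-151750085 for Ifi44 and chr3:151762917-151763066 for Ifi44l. Capitals mark a match of GAAA and GAAA with 3 bases between them, read on the opposite strand, whose first printed base lies 55 bases before the start of Ifi44.
Ifi44: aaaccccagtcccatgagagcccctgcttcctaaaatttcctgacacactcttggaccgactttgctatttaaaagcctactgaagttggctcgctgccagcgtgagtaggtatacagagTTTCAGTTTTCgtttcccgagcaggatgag
Ifi44l: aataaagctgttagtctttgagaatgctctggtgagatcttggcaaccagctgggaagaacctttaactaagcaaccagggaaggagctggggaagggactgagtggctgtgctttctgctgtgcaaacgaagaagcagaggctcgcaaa

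The G and C content of the stretches was 48.7% for Ifi44 and 49.3% for Ifi44l. Motifs were searched on both strands of the RefSeq window from 250 bases before to 50 bases after each start. GAAA and GAAA with 2 bases between them, the core of the interferon-stimulated response element, had 0 matches in both windows, and was present in 3.44% of 32851 windows of all genes and in 38 of 72 windows (52.8%) of other interferon-induced genes. The same core with a spacer of 3 bases was added after the Ifi44 sequence had been seen. It had 1 match in Ifi44 and 0 in Ifi44l, and was present in 2.75% of all windows and in 11 of 72 windows (15.3%) of the interferon-induced genes. TTC and GAA with 3 bases between them, the core of the gamma-activated site, had 0 matches in both, against 8.3% of all windows and 14 of 72 (19.4%). These letters describe the windows alone, and that of Ifi44l rests on an incomplete start.

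Levels are given in FPKM, fragment counts scaled to gene length and library depth, as the authors deposited them. The reads behind each value were recovered from the FPKM values. Summed over the genes of the table they came to 14990474 to 19822673 per library, which counts reads assigned to genes and not all reads sequenced. Dusp6, the targeted gene, averaged 0.440 ± 0.117 FPKM (SD, n = 5) in DUSP6 KO against 19.4 ± 2.81 FPKM (SD, n = 5) in WT, in accord with the labels. The 13 spleen marker genes (B cells, T cells, splenic macrophages and stroma) were detected in both groups. Exocrine pancreas markers set WT replicate 67 apart, at a summed 15705 FPKM against 200.4 FPKM in WT replicate 65 and 9.55 to 26.2 FPKM in the other 8 spleens. Gene expression was compared with limma on log2(FPKM + 0.1) for 21296 genes, a scale that understates the change of genes with low values, with Benjamini-Hochberg adjusted p-values over all of them.

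Ifi44l was found in every DUSP6 KO spleen and was almost absent from WT. In DUSP6 KO it was at 9.81 FPKM in replicate 26, 8.71 in replicate 21, 6.05 in replicate 73, 7.75 in replicate 01 and 12.7 in replicate 03. In WT it was listed at 0 in replicates 65, 67, 73 and 77 and at 0.0406 FPKM in replicate 83. The groups did not overlap. These values rest on 252, 233, 122, 231 and 291 reads in the DUSP6 KO libraries and on 1 read in all 5 WT libraries together. At the WT depths 3 reads, the limit that a count of 0 allows, would have been 0.118 to 0.140 FPKM, so a level up to about that limit is compatible with the 4 WT libraries without a read. The DUSP6 KO mean was 9.01 ± 2.50 FPKM (SD, n = 5).

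The ratio of Ifi44l read rates, 1129 reads in DUSP6 KO against 1 in WT, was 1093 with an exact 95% interval of 195.8 to 43225. Such intervals cover counting error only, since reads are not independent molecules, and the upper bound is set by the single WT read. The fitted log2 fold change was 6.37 ± 0.22 (SE), and it depends on the pseudocount because WT was at the floor (3.28 with a pseudocount of 1, 9.31 with 0.01).

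Ifi44 was expressed in both groups at different levels. In DUSP6 KO it was at 2.76 FPKM in replicate 26, 3.17 in replicate 21, 2.56 in replicate 73, 3.14 in replicate 01 and 3.60 in replicate 03, from 230 to 417 reads. In WT it was at 0.611 FPKM in replicate 65, 0.282 in replicate 67, 0.662 in replicate 73, 0.628 in replicate 77 and 0.464 in replicate 83, from 33 to 70 reads. Every DUSP6 KO spleen lay above every WT spleen, and the lowest DUSP6 KO value was 3.87 times the highest WT value. The means were 3.05 ± 0.402 FPKM (SD, n = 5) in DUSP6 KO against 0.529 ± 0.158 FPKM (SD, n = 5) in WT, a ratio of 5.76. The ratio of read rates was 5.86 (exact 95% interval of 5.17 to 6.67). The fitted log2 fold change was 2.36 ± 0.21 (SE), or 1.40 with a pseudocount of 1. As the tissue was whole spleen, more cells that express the pair and more RNA per cell cannot be told apart.

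**Figure D1:**
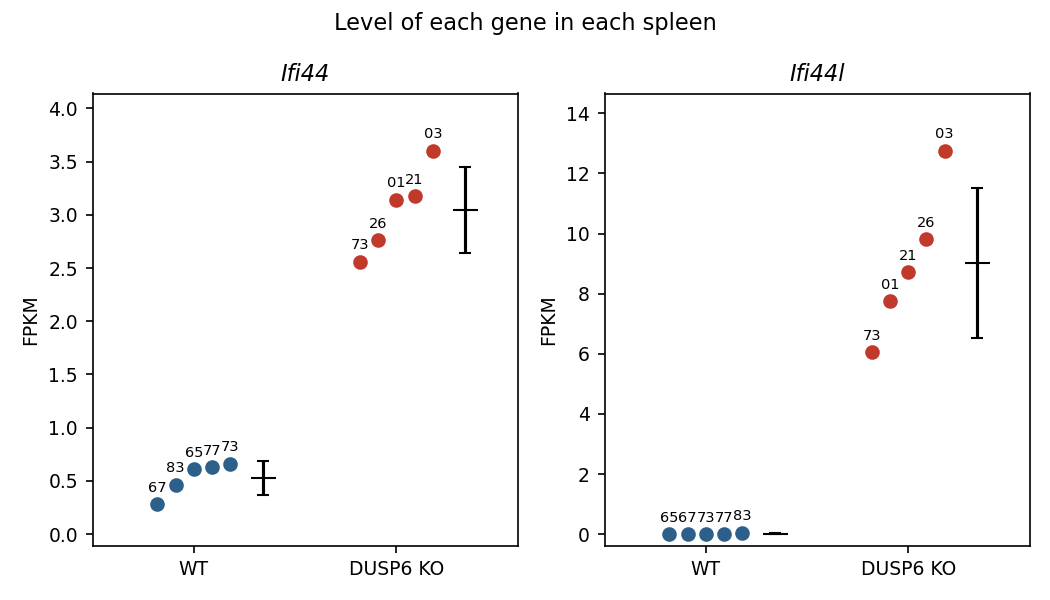
FPKM of Ifi44 (left) and Ifi44l (right) in each spleen, with a point per spleen labelled by its replicate number and the group mean with SD (n = 5) as a bar. DUSP6 KO spleens sit between 2.56 and 3.60 FPKM for Ifi44 and between 6.05 and 12.7 FPKM for Ifi44l, above all WT spleens, which are at or near 0 for Ifi44l.

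These differences chose the pair, and the share of such genes in the whole table is given as background. Groups did not overlap for 0.549% of the genes tested with higher values in DUSP6 KO and for 0.563% with lower values. At an adjusted p of 0.05 or less (limma), 0.0376% of the genes were higher in DUSP6 KO and 0.0329% lower. Leaving out a single spleen kept the fitted log2 fold change at 2.19 to 2.44 for Ifi44 and at 6.23 to 6.50 for Ifi44l. WT replicate 67 had both the pancreas markers and the lowest Ifi44. Without it, WT Ifi44 was 0.591 ± 0.0873 FPKM (SD, n = 4) and the ratio of the means 5.15.

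Within groups, the spleens differed more than counting alone gives at the ends of the order. For Ifi44l in DUSP6 KO the order was replicate 03, 26, 21, 01 and 73, a range of 2.11 times with a coefficient of variation of 27.8%. The 95% counting interval of replicate 03 (11.3 to 14.3 FPKM) lay above that of replicate 26 (8.64 to 11.1 FPKM), next in order, while the intervals of the other neighbours overlapped. For Ifi44 the order was 03, 21, 01, 26 and 73, a range of 1.41 times with a coefficient of variation of 13.2%. All neighbours overlapped in their intervals there, and the ends, 3.24 to 3.99 FPKM in replicate 03 and 2.24 to 2.91 FPKM in replicate 73, did not. In WT, Ifi44 ranged over 2.35 times (coefficient of variation 29.8%), and replicate 67 (0.194 to 0.396 FPKM) overlapped with replicate 83 (0.346 to 0.610 FPKM) and with no other WT spleen. Both genes thus had their highest value in DUSP6 KO replicate 03 and their lowest in replicate 73, and they differed in the order between these ends.

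**Figure D2:**
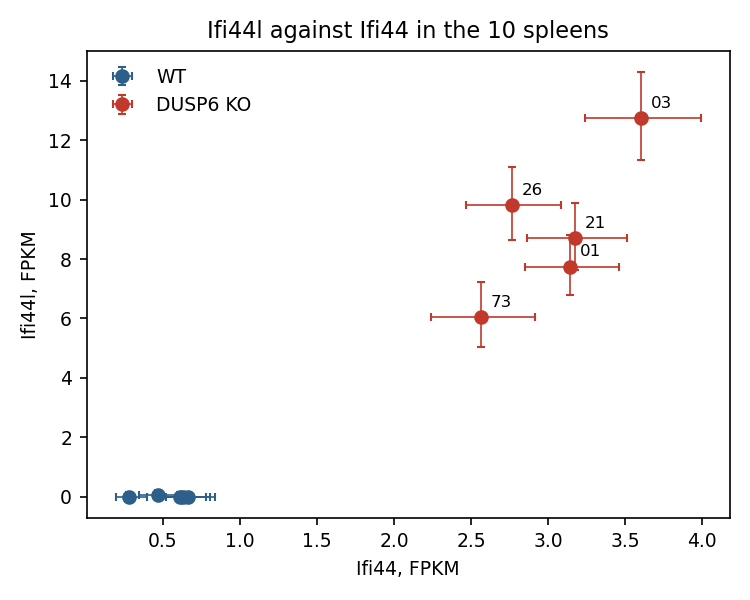
Ifi44l against Ifi44 in FPKM in the 10 spleens, with exact 95% counting intervals as bars and the DUSP6 KO replicate numbers beside the points. The DUSP6 KO spleens spread from replicate 73 at the lower left to replicate 03 at the upper right, and the WT spleens lie at or near 0 for Ifi44l.

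Per length, Ifi44l was the higher of the pair in every DUSP6 KO spleen. The ratio of Ifi44l to Ifi44 in FPKM was 3.55 in replicate 26, 2.75 in replicate 21, 2.36 in replicate 73, 2.47 in replicate 01 and 3.54 in replicate 03, with a mean of 2.93 ± 0.577 (SD, n = 5). The intervals of replicates 26 (2.998 to 4.20) and 03 (3.03 to 4.14) did not overlap with those of replicates 73 (1.88 to 2.96) and 01 (2.09 to 2.90), as far as counting error goes. No ratio was formed in WT, where no spleen had the 4 reads of Ifi44l required. The length used for Ifi44 was 6129 bases, all exons of its 4 transcripts, against 2910 bases of its coding transcript. With reads divided by the coding transcript's length instead, the ratio fell to 1.39 ± 0.274 (SD, n = 5) and ranged from 1.12 to 1.69, still above 1 in each of the 5 spleens. Since the Ifi44l model lacks its start, its length and its counted reads may both be incomplete, and the ratio compares the annotated parts of the genes. As read counts, Ifi44l had 0.530 to 0.797 reads for each read of Ifi44.

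With 5 spleens a group, no correlation was computed within a group. Over all 10 spleens with group means removed, Ifi44 and Ifi44l had a Pearson r of 0.20 and a Spearman rho of 0.16. Without the 2 farthest spleens r was -0.295. Since Ifi44l had 1 read in WT, the WT spleens tell little about how the pair varied together. The co-variation of the pair is therefore described mainly by the order of the 5 DUSP6 KO spleens and their ratios.

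The 80 other interferon-induced genes listed here did not share the difference of the pair. The list leaves out the guanylate-binding protein gene Gbp2b, which the paper reports as higher in DUSP6 KO. Of the 80 genes, 21 had higher and 59 lower fitted values in DUSP6 KO. At an adjusted p of 0.05 or less 0 passed in either direction, by limma on log2 FPKM or by limma voom on recovered reads. Over all genes tested, 0.0376% were higher and 0.0329% lower at that threshold in limma. At an unadjusted p under 0.05, 0 were higher (2.62% of all genes tested) and 2 lower (3.03% of all genes tested). The groups overlapped for all 80, whereas 0.549% of all genes tested were higher and 0.563% lower without overlap. The middle value of their log2 fold changes was -0.11, against -0.0046 over all genes tested. The upper 95% bound of the log2 fold change lay below the 2.36 of Ifi44 for all 80 genes and below 1 for 76 of them, the highest bound being 1.48 for Oas1g. Mean log2 values of the 80 genes were 3.55 ± 0.199 (SD, n = 5) in DUSP6 KO against 3.63 ± 0.131 (SD, n = 5) in WT.

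Without DUSP6 KO replicate 01, 4 interferon-induced genes were higher at an unadjusted p under 0.05, Xaf1, Oas1g, Lgals3bp and Ifi27l2a. Without WT replicate 77, 7 were lower, and 0 passed adjustment in either case. When the pair was ranked with these genes, out of 82 Ifi44 was in place 80 by WT level and in place 72 by DUSP6 KO level, and Ifi44l was in place 82 and in place 50. In DUSP6 KO both genes were thus still below the median of the 80 genes, 11.7 FPKM (12.8 FPKM in WT).

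**Figure D3:**
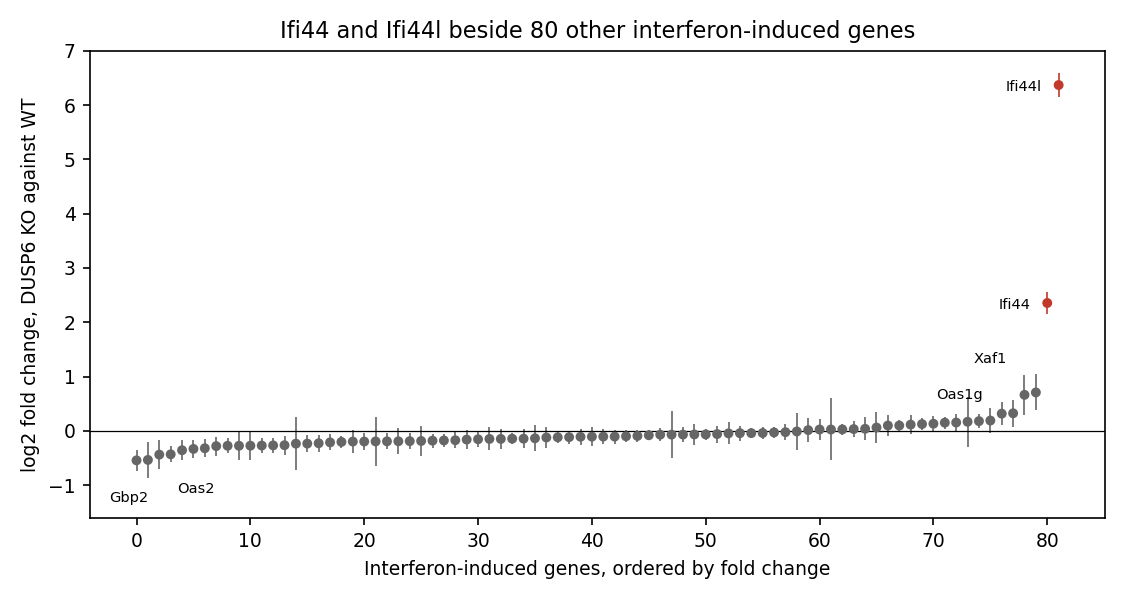
Fitted log2 fold change of DUSP6 KO against WT, with SE, for Ifi44 and Ifi44l (red) and 80 other interferon-induced genes (grey), in the order of the fold change. The grey genes run from -0.54 (Gbp2) to 0.71 (Xaf1), and Ifi44 (2.36) and Ifi44l (6.37) stand above them, the difference by which the pair was chosen.

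Among the 80 genes, the largest positive log2 fold change was that of Xaf1, a proapoptotic gene, at 7.76 ± 3.66 FPKM in DUSP6 KO against 4.24 ± 0.625 FPKM in WT (log2 fold change 0.71 ± 0.33 SE, limma adjusted p = 0.91). Its DUSP6 KO spleens ran from 3.13 to 11.4 FPKM and overlapped with WT at 3.55 to 4.86 FPKM. Next came Oas1g, an oligoadenylate synthetase gene (0.66), the immunity-related GTPases Igtp (0.33) and Irgm2 (0.32), and Phf11d (0.19). At the other end stood Gbp2, a guanylate-binding protein gene, at 15.5 ± 4.68 FPKM in DUSP6 KO against 22.0 ± 2.79 FPKM in WT (-0.54 ± 0.19 SE, limma adjusted p = 0.75). Oas2 (-0.53), the GTPase gene Tgtp1 (-0.44), the antiviral Samd9l (-0.43, limma adjusted p = 0.75) and the DNA-sensor relative Ifi205 (-0.36) followed. Gbp2 and Samd9l were the 2 genes at an unadjusted p under 0.05, with p of 0.018 and 0.016 in limma.

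The steps of the pathway before the pair showed 0 genes at an adjusted p of 0.05 or less, by limma on log2 FPKM and by voom. Over all genes tested, 0.0376% were higher and 0.0329% lower at that threshold in limma, so lists this short would mostly show 0. Of 21 interferon ligand genes, 15 were at 0 reads in all 10 libraries, 5 did not pass the expression filter, and Ifng alone was tested. Ifng, the type II interferon, had 3 to 31 reads in DUSP6 KO spleens and 7 to 23 in WT spleens, a depth at which only large differences are detectable (log2 fold change -0.71 ± 0.50 SE, limma adjusted p = 0.96). So the type I ligands, which precede Ifi44 and Ifi44l, were at or near the floor in both groups.

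Of the 6 receptor genes, Ifnar2 was at 21.7 ± 1.68 FPKM in DUSP6 KO against 19.3 ± 0.996 FPKM in WT (log2 fold change 0.16, unadjusted p = 0.044 and adjusted p = 0.86 in limma). It was the only one at an unadjusted p under 0.05 (2.62% of all genes tested were higher at that threshold). Ifnar1, the partner of Ifnar2, had a log2 fold change of -0.09. The 7 signal transducers stood at -0.10 in the median of their log2 fold changes, with 0 at an unadjusted p under 0.05 (2.62% higher and 3.03% lower over all genes tested). Among them, Stat2 (-0.14), Irf9 (-0.10) and Jak1 (0.04) were near 0, and Tyk2 (-0.0015) changed sign with the scaling, to 0.02 with median centring.

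Irf7, which amplifies interferon production and is itself interferon-induced, was at 19.1 ± 6.33 FPKM in DUSP6 KO against 18.3 ± 3.04 FPKM in WT, a log2 fold change of 0.02 with a 95% interval of -0.46 to 0.49. All 10 interferon regulatory factors and all 18 genes of nucleic acid sensing stood at an unadjusted p of 0.05 or more, with median log2 fold changes of -0.09 and -0.06. Of 13 feedback inhibitors, Socs3, which dampens cytokine signalling, was at an unadjusted p under 0.05 (log2 fold change -0.47, unadjusted p = 0.020 and adjusted p = 0.77 in limma), and the median over the list was -0.15. Over all genes tested, 2.62% were higher and 3.03% lower at an unadjusted p under 0.05, so lists this short would show few such genes. Usp18, which blocks the receptor, had a log2 fold change of -0.16, and Socs1 one of -0.19. The ubiquitin-like Isg15 was at 59.2 ± 46.8 FPKM in DUSP6 KO against 60.4 ± 27.2 FPKM in WT (-0.23), with a spread wider than its difference.

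Nor did Ifi44 follow these genes from spleen to spleen. With group means removed, Ifi44 and the mean log2 value of the 80 genes had a Pearson r of -0.27 and a Spearman rho of -0.30 over the 10 spleens, and r of 0.10 without the 2 farthest spleens. Of the 80 genes, 17 had a positive r with Ifi44 and the median r was -0.21, whereas 9860 of 21295 genes were positive over the whole table, with a median of -0.04. Replicate 01, with the lowest mean of the 80 genes among all spleens (3.22), had 3.14 FPKM of Ifi44, in the middle of DUSP6 KO. Replicates 26 and 73, with the highest means in DUSP6 KO (3.69 and 3.69), had the lowest Ifi44 of that group. These points share library depth and cell makeup of the spleens, and with 10 spleens the values are a description.

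**Figure D4:**
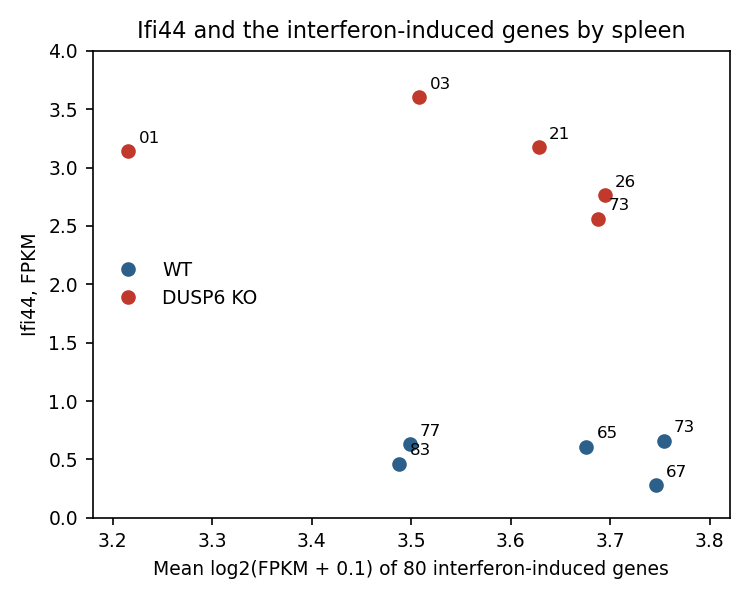
Ifi44 in FPKM against the mean log2(FPKM + 0.1) of 80 other interferon-induced genes, with a point per spleen and the replicate number beside it. DUSP6 KO (red) and WT (blue) overlap along the horizontal axis and separate along the vertical one.

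The genes around the pair on chromosome 3 were mostly near 0 in their difference. Within 5 Mb of the start of Ifi44 the table lists 122 other genes, and 35 passed the expression filter. Their median log2 fold change was 0.02, and 0 passed at an adjusted p of 0.05 or less by limma or by voom, with 2 higher and 2 lower at an unadjusted p under 0.05 (2.62% and 3.03% of all genes tested). The upper 95% bound of the log2 fold change lay below the 2.36 of Ifi44 for 32 of the 35 genes and below 1 for 28. The exceptions to the former were genes of few reads, Gm16231 (1.32, with a bound of 3.39, at most 11 reads in a DUSP6 KO spleen and 1 in a WT spleen), Gm26456 (0.83, bound 2.55) and Gm22206 (0.75, bound 2.68). Ptgfr, the prostaglandin F receptor gene and the nearest one tested, starts 0.0656 Mb from the start of Ifi44 (both taken as the lower coordinate) and was at 0.178 ± 0.0942 FPKM in DUSP6 KO against 0.273 ± 0.122 FPKM in WT (log2 fold change -0.45 ± 0.36 SE, limma adjusted p = 0.98). On that side followed the heat shock protein gene Dnajb4 (0.12) and Fubp1, which encodes a DNA-binding protein, at 9.33 ± 0.460 FPKM in DUSP6 KO against 10.7 ± 0.482 FPKM in WT (-0.20, limma adjusted p = 0.73). On the other side were the adhesion receptor gene Adgrl4 (0.16), 4930555A03Rik (0.38) and the pseudogene Gm6439 (-0.30). Chosen after its values were seen, Gm43859, 0.653 Mb from Ifi44, was at 1.11 ± 0.124 FPKM in DUSP6 KO against 0.554 ± 0.134 FPKM in WT without overlap (log2 fold change 0.91, unadjusted p = 0.00076, limma adjusted p = 0.30). The other genes at an unadjusted p under 0.05 were Rabggtb (0.42), St6galnac5 (-0.90) and Fubp1. Of the 35 genes, the groups did not overlap for 1 with higher values in DUSP6 KO, Gm43859, and for 1 with lower values, Fubp1. The shares over all genes tested were 0.549% and 0.563%.

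**Figure D5:**
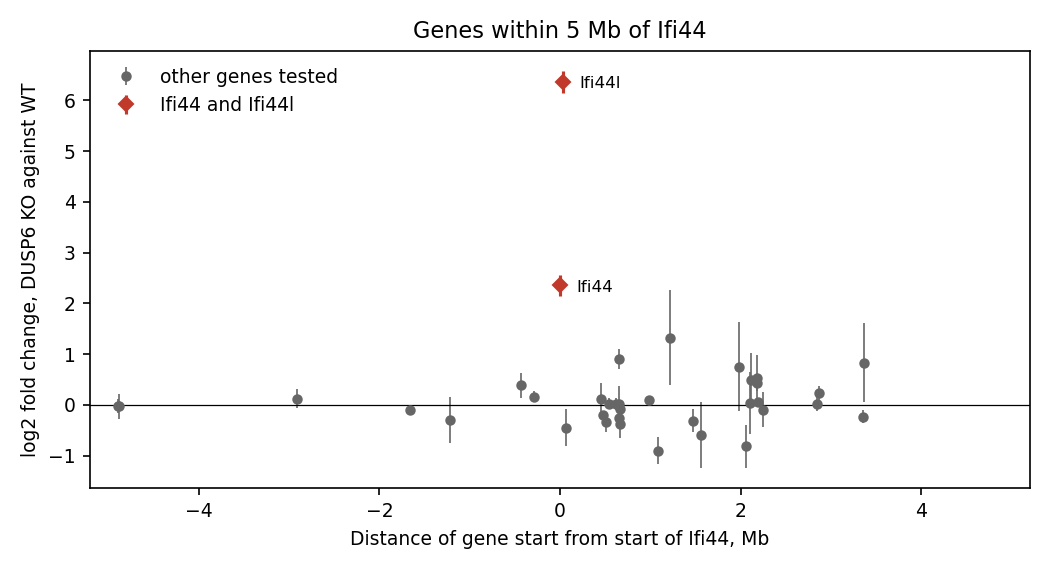
Fitted log2 fold change of DUSP6 KO against WT, with SE, against the distance of the gene's start from the start of Ifi44 in Mb, for 35 genes tested within 5 Mb (grey) and the pair (red). The grey genes scatter about 0, from -0.90 to 1.32, and Ifi44 and Ifi44l, side by side at the centre, stand above them.

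Among the 5 other genes with a TLDc domain, the domain that Ifi44 and Ifi44l carry, 0 passed at an adjusted p of 0.05 or less by limma or voom. At an unadjusted p under 0.05 there were also 0 (2.62% higher and 3.03% lower over all genes tested). The log2 fold changes of the 5 genes were -0.10 for Oxr1 and 0.13 for Ncoa7, which act in the defence against oxidative stress, 0.01 for Tldc1, 0.67 for Tldc2 and 0.22 for Tbc1d24, a regulator of vesicle traffic. Tldc2 was low, at 0.304 ± 0.323 FPKM in DUSP6 KO against 0.198 ± 0.397 FPKM in WT, with 0 reads in some spleens of both groups.

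Likeness to each gene of the pair was measured as the Pearson r of log2(FPKM + 0.1) with group means removed, over the 10 spleens and 13420 genes whose mean reached 1 FPKM. For Ifi44 the most alike were Lrrc8a, a subunit of the volume-regulated anion channel (r 0.91), Gm43461 (0.90), Khdrbs3, an RNA-binding protein gene (0.89), Nrg2, a growth factor gene (0.88), and Gm44349 (0.88). All 5 had their lowest WT value in replicate 67, the spleen with pancreas markers and the lowest Ifi44. Without it, in an alternative chosen after seeing the data, r was 0.69, 0.65, 0.86, 0.76 and 0.48, and without the 2 spleens farthest from the median of Ifi44 (WT replicate 67 and DUSP6 KO replicate 73) it was 0.59, 0.72, 0.78, 0.65 and 0.53, so the likeness rests in part on replicate 67. For Ifi44l they were Ddit4, a stress-induced inhibitor of mTOR signalling (0.96), the kinase gene Sik1 (0.95), Lppos (0.95), the RNA-decay factor gene Zfp36l2 (0.94) and the receptor gene Gpr171 (0.93). Without DUSP6 KO replicate 03 and WT replicate 83, the farthest for Ifi44l, r was 0.91, 0.87, 0.85, 0.85 and 0.79. In DUSP6 KO, Ddit4 was at 75.7 FPKM in replicate 26, 54.3 in replicate 21, 28.6 in replicate 73, 47.6 in replicate 01 and 105.2 in replicate 03, the same order of spleens as for Ifi44l. None of the 10 genes was in the list of interferon-induced genes, and their adjusted p between the groups was 0.95 or more (limma). All 5 genes like Ifi44l had their highest WT value in replicate 83, the spleen with the single WT read. Without that spleen r was 0.91 to 0.95, and it then rests on the 5 DUSP6 KO spleens, since Ifi44l was at 0 in the remaining WT spleens. All 10 genes were picked as the highest r among 13420 genes in these same spleens. Their r, also with spleens left out, is a description and no test of a link with the pair.

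Fitted values of the markers of some cell types differed between the groups beside the pair. All 12 neutrophil markers had lower fitted values in DUSP6 KO (median log2 fold change -1.14, 8 of them with an unadjusted p under 0.05, against 3.03% of all genes tested), and their summed level was 604.8 to 2075 FPKM in DUSP6 KO and 1166 to 5291 FPKM in WT. All 6 markers of classical monocytes were lower in the same sense, with a median of -0.78 and 5 at an unadjusted p under 0.05 (3.03% of all genes tested), and summed to 66.3 to 134.9 FPKM in DUSP6 KO and 108.2 to 284.0 FPKM in WT. At an adjusted p of 0.05 or less there were 0 of either list in limma on log2 FPKM, and 1 monocyte marker in voom. In flow cytometry of male splenocytes on day 9, the paper saw no significant difference in myeloid cell numbers. It also states that neutrophil numbers did not differ, so the RNA values are no count of cells. Plasmacytoid dendritic cells, the main producers of type I interferon, had 10 markers with a median of -0.05, and Siglech (0.34, limma adjusted p = 0.80) was the single one at an unadjusted p under 0.05 (2.62% of all genes tested were higher at that threshold). The 10 markers summed to 264.2 to 493.7 FPKM in DUSP6 KO and 298.6 to 882.6 FPKM in WT, where the highest value was that of replicate 67, the spleen with pancreas markers, and included 285.1 FPKM of Klk1 (1.62 to 4.18 FPKM in the other 9 spleens). Without Klk1 the sums were 261.1 to 489.7 FPKM in DUSP6 KO, and in WT 297.0 to 597.5 FPKM. Leaving out replicate 67 as well, the WT sums reached 491.9 FPKM. Ly6d and Bst2 made up most of the sums without Klk1. Mean FPKM was 293.9 (DUSP6 KO) against 342.8 (WT) for Ly6d, and 78.4 against 79.8 for Bst2. Bst2 is also in the list of interferon-induced genes. For Siglech the means were 10.6 against 8.41 FPKM, so the sums say little about it or the other markers. Of the 13 spleen markers, 3 were higher in DUSP6 KO with the pair at an unadjusted p under 0.05 (2.62% of all genes tested). They were the marginal zone macrophage genes Marco (0.72, limma adjusted p = 0.34) and Cd209b (0.89, limma adjusted p = 0.36) and the stromal gene Tlx1 (0.58, limma adjusted p = 0.46). The groups did not overlap for Marco and Cd209b, as for 0.549% of all genes tested with higher values in DUSP6 KO. The median over the 13 spleen markers was -0.0035, and they summed to 815.2 to 1105 FPKM in DUSP6 KO and 734.6 to 1269 FPKM in WT. The 9 erythroid markers had a median log2 fold change of 0.27. They summed to 20313 to 104979 FPKM in DUSP6 KO and 24388 to 49712 FPKM in WT. In DUSP6 KO the sum was highest in replicate 73, where both genes of the pair were lowest, and then fell from replicate 26 to 01, 03 and 21. In WT the sum was lowest in replicate 67, where Ifi44 was also lowest. The part of any of these cell types in the level of Ifi44 and Ifi44l, or in the order of the spleens, was not tested.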

How the data were processed

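Paired-end, poly-A selected RNA libraries of 10 mouse spleens were analysed. The authors aligned reads with Hisat2 2.0.5, counted them per gene with featureCounts 1.5.0-p3 and deposited FPKM values, per gene length and depth, with gene coordinates. Whether counting used the strand is not stated. The processing notes name hg38, a human build. Of the 54532 genes of the table, 54409 were found in mouse GENCODE release 21 (GRCm38), and 53462 of these (98.3%) have identical positions there, and GRCm38 coordinates are used.

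Multiplied by gene length, every FPKM value was a multiple of 1 step per library (100% of values within 0.001 of a read in all 10 libraries), which gave the reads. Whole-table comparisons fitted log2(FPKM + 0.1) with limma 3.58.1 (R 4.3.3), with trended eBayes, for genes whose mean over the libraries reached 0.1 FPKM, and p-values were adjusted by Benjamini-Hochberg over all 21296. The deposited unit was FPKM, so no count test was the main one, and limma voom on the recovered reads was an alternative. The test was tried on simulated data. The p-values measure the spread between 5 spleens a group from separate mice. Counting intervals were exact 95% Poisson intervals, and the interval of a read ratio came from the exact binomial (scipy 1.17.1). Transcripts were aligned with blastn 2.17.0. Promoter windows came from RefSeq.

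The members and gene lists were chosen with earlier results of these data known. Named genes are the pair, 12 fixed genes of the interferon pathway (1 of them is not reported here), the 5 interferon-induced genes with the largest log2 fold change in each direction, the TLDc genes, the 3 nearest genes tested on each side, the 5 most alike and Dusp6. The remaining genes named were chosen after their values were seen. Other settings tried were a pseudocount of 1 or 0.01, a higher filter (mean of 1 FPKM), no filter, median centring, quantile normalization, voom and leaving out each spleen. After seeing the data, likeness without WT replicate 67 or 83 and a marker sum without Klk1 were added.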

Additional observations from a re-analysis of the deposited data

Results flagged for a closer look

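In groups of 5 spleens, a value was singled out when its gap to the nearest spleen exceeded 0.71 of the group's range. This held in 13 of 126 groups examined. About 1 in 20 would hold for independent groups with a normal spread. These groups share spleens and some lie near 0, so the 13 are not weighed against that share. Ifi44l in WT was 0.0406 FPKM in 1 spleen, a single read, and 0 in the other 4. Ifi44 was not singled out in either group.

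The other named genes singled out lie on other chromosomes than the pair. In DUSP6 KO the highest spleen had 1.23 FPKM of Ifng (the others at most 0.369). The highest had 75.3 FPKM of Igtp (the others at most 38.7) and 39.5 FPKM of Irgm2 (the others at most 20.6). These last 2 values were both in replicate 73, where Ifi44 and Ifi44l were lowest. The lowest DUSP6 KO spleen had 1.10 FPKM of Phf11d (the others at least 1.65). In WT, the lowest spleen had 14.9 FPKM of Irgm2 (the others at least 17.4) and 7.89 FPKM of Oxr1 (the others at least 8.24), and the highest had 0.905 FPKM of Tldc2 (the others at most 0.0870).

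Of the marker sums, the highest WT spleen had 15705 FPKM for exocrine pancreas (the others at most 200.4), 14.9 FPKM for mesothelium (the others at most 6.77) and 284.0 FPKM for classical monocytes (the others at most 153.2). The lowest DUSP6 KO spleen had 489.7 FPKM for plasma cells (the others at least 669.0). The WT library with the most recovered reads had 18422147 (the others at most 16348136).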

How the results depend on the processing

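Of 1024 alternative values of the main results, 1000 kept their direction and size or count and 24 did not. Many of the 1024 were list counts at an adjusted p of 0.05 or less that stayed at 0. The ratio of Ifi44l to Ifi44, formed in DUSP6 KO alone, could not move when a WT spleen was left out. The 1000 are therefore no measure of stability. Of 742 alternative values for named genes, 26 changed sign, all of genes that did not pass the test in any setting. The cause of these moves was not tested. The log2 fold change of Ifi44 was 1.40 with a pseudocount of 1, and that of Ifi44l was 3.28 with 1, 9.31 with 0.01 and 8.43 by voom. Without single spleens, 6 to 20 genes were higher and 5 to 12 lower over the table (main 8 and 7), the highest counts without DUSP6 KO replicate 21, and 4 were lower with a minimum mean of 1 FPKM. At an unadjusted p under 0.05, 0 to 4 interferon-induced genes were higher and 2 to 7 lower without single spleens. On chromosome 3, 2 to 3 genes were higher and 2 to 4 lower (4 without DUSP6 KO replicate 21), with 1 and 1 at a minimum mean of 1 FPKM, and 4 lower without a filter. The share over all genes tested in each of these settings is not given here, so these counts have no background beside them. The mesothelium median was -0.37 with a pseudocount of 1 and 0.15 at a minimum mean of 1 FPKM, against -1.38, and 1 monocyte marker was lower by voom. The r with Ifi44 without 2 spleens was 0.59 for Lrrc8a and 0.53 for Gm44349, which fell to 0.48 without WT replicate 67.

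Log2 fold changes near 0 turned sign. Tyk2 was 0.017 with median centring, 0.0076 with quantile normalization and 0.013 by voom. Without single spleens the ranges were -0.054 to 0.061 for Tyk2, -0.13 to 0.17 for Irf7, -0.62 to 0.064 for Isg15, -0.061 to 0.28 for Ncoa7, -0.11 to 0.10 for Tldc1, -0.097 to 0.31 for Dnajb4, -0.046 to 0.16 for Khdrbs3, -0.028 to 0.44 for Ddit4, -0.037 to 0.32 for Sik1, -0.062 to 0.27 for Lppos and -0.30 to 0.039 for Gpr171. No paired analysis was possible because the groups share only 1 replicate number, which does not mark a shared animal.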
